A study of Homo sapiens with 4 samples.

Results

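The miR-29 family was followed in small RNA sequencing of H661 cells, a long-established line grown from a human large cell carcinoma of the lung. Its members are all rows of the count table whose name, without the arm and the copy number, is miR-29a, miR-29b or miR-29c. There were 5 such rows among 826 mature miRNA names, and they are hsa-miR-29a-3p, hsa-miR-29b-3p (prefix left out below), miR-29b-1-5p, miR-29b-2-5p and miR-29c-5p. Only miR-29a-3p had enough counts for the main test, and miR-29a-5p and miR-29c-3p were not analysed here. Cells received 2.5 µM entinostat, a drug that blocks class I histone deacetylases, or its solvent DMSO, for 8 h, with 2 libraries per treatment. Both groups came from the same line in the same medium. The labels do not say whether replicates were grown separately, so the spread that a p-value rests on here may be purely technical.

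The miR-29 miRNAs are made from 2 pairs of hairpins, miR-29a with miR-29b-1 and miR-29c with miR-29b-2, each pair known to be cut from a common primary transcript. The guide strands come from the 3p arm, repress collagens and other matrix genes, the survival factor MCL1 and the de novo DNA methyltransferases DNMT3A and DNMT3B, and the last link was studied in lung cancer cells. In lymphoma cells MYC is known to repress the family together with a histone deacetylase.

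The 3 guide strands carry the same seed, bases 2 to 8, shown in capitals, and differ only in the bases behind it. They are shown because the counts below turn on which of these near-identical sequences was counted, and all sequences are RefSeq entries on GRCh38.p14.
miR-29a-3p: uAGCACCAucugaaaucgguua
miR-29b-3p: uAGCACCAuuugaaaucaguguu
miR-29c-3p: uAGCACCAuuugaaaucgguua
Counted from 1 at the 5′ end, miR-29a-3p differs from miR-29c-3p by 1 substitution, C10U, and from miR-29b-3p over the first 22 bases by 4, C10U, G18A, U21G and A22U. The sequence of miR-29b-3p is the same from both of its hairpins, so its counts cannot be assigned to either. No other RefSeq mature miRNA named in the count table has the same bases 2 to 8, nor the same bases 2 to 7. The letters AGUGUU, a 3′ end known to direct miR-29b into the nucleus, stand at bases 18 to 23 of miR-29b-3p and occur in 3 of the 729 table names with a RefSeq sequence (0.412%, read on the mature strand, with overlaps allowed), of which only miR-29b-3p ends in them.

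The passenger strands, unlike miR-29b-3p, tell the miR-29b hairpins apart. These are the 5p arms with rows in the table.
miR-29b-1-5p: gcugguuucauauggugguuuaga
miR-29b-2-5p: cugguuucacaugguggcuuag
miR-29c-5p: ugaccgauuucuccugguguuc
Aligned without gaps over 22 bases, miR-29b-1-5p and miR-29b-2-5p differ at 2 positions, U11C and U19C, counted from the 5′ end of miR-29b-1-5p.

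The 4 hairpins are given with their mature arms in capitals, the 5p arm first, since the mates of each pair are set against each other below. Each lies on the minus strand, at chr7:130876747-130876810 (MIR29A), chr7:130877459-130877539 (MIR29B1), chr1:207802443-207802523 (MIR29B2) and chr1:207801852-207801939 (MIR29C).
MIR29A: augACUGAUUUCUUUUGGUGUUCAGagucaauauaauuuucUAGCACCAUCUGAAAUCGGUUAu
MIR29B1: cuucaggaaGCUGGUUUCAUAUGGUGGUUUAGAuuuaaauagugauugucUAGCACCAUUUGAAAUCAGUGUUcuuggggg
MIR29B2: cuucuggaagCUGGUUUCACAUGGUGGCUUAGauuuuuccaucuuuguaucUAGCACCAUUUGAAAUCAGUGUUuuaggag
MIR29C: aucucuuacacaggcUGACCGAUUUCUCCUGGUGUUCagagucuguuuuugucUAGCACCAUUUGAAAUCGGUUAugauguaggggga
The chromosome 7 hairpins are 648 bases apart and the chromosome 1 hairpins 503 bases. In GENCODE release 29, MIR29B1 lies in an exon of a transcript of the long non-coding RNA gene LINC-PINT that also covers 2 bases at the 5′ end of the MIR29A hairpin, and both sit in an intron of the lincRNA AC016831.6 on the same strand. MIR29B2 and MIR29C lie in exons of their host transcript MIR29B2CHG.

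The libraries held 547875 and 753104 miRNA counts with entinostat and 938559 and 561485 with DMSO, with 589 and 682 against 687 and 596 miRNAs seen at least once. Among miRNAs that mark cell types, 4 of 7 epithelial ones were seen, at 59.8 to 76.7 CPM (counts per 1000000 counts of the library) in all with entinostat and 41.0 to 56.5 CPM with DMSO, mostly miR-200c-3p. Of 4 mesenchymal ones 3 were seen, miR-143, miR-145 and miR-199a, and miR-214 had no counts. Together they reached 112 to 115 CPM with entinostat and 70.3 to 90.8 CPM with DMSO, mostly miR-143-3p. No counts of miR-199a were seen with DMSO. Blood and muscle markers, the liver marker miR-122 and the neuron marker miR-124 reached at most 12.8 CPM each. Of the blood names 1 of 4 was seen, of the muscle names 2 of 4, and miR-124 only as its 5p arm. The neuron set held miR-124 alone, while other miRNAs known from neurons were well counted at TMM-scaled levels (CPM after scaling by the trimmed mean of M-values). They were miR-9-5p at 1329 and 1260 CPM with entinostat and 1099 and 1186 CPM with DMSO, miR-128-3p at 5636 to 6996 CPM and miR-132-3p at 672 to 813 CPM over the 4 libraries, all named after their values were seen. The part of these differences in the miR-29 values was not tested.

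Almost every miR-29 count in H661 cells belonged to miR-29a-3p. The row hsa-miR-29a-3p had 447 and 640 counts with entinostat, and 653 and 425 counts with DMSO. Those were 98.2% (exact 95% interval 96.6 to 99.2%) and 98.6% (97.4 to 99.4%) of the miR-29 counts with entinostat, and 97.9% (96.5 to 98.8%) and 97.5% (95.5 to 98.7%) with DMSO. The intervals of the 4 libraries overlapped, and they cover counting error only. The ligation and PCR steps of library preparation can favour some sequences, so shares of counts need not equal shares of molecules. How reads that fit near-identical members were counted is not given, so the row of miR-29a-3p may hold reads of miR-29c-3p, which was not tested.

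The guide strand of the cluster mate, miR-29b-3p, was hardly counted at all. The row hsa-miR-29b-3p had 0 and 0 counts with entinostat, and 2 and 0 counts with DMSO. Where no count was seen, up to 3 counts were allowed, or 5.48 and 3.98 CPM in the entinostat libraries and 5.34 CPM in DMSO replicate 2. Set against miR-29a-3p, it made up 0 of 1087 counts of the pair with entinostat, 0% (exact 95% interval 0 to 0.339%), and 2 of 1080 with DMSO, 0.185% (0.0224 to 0.667%). These intervals are on counts summed over the libraries of a treatment and cover counting error only. By library the upper limits ran from 0.575 to 1.10%. Both groups were under the floor of 3 counts, so no fold is given, and a difference between treatments was not detectable at this depth.

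The passenger strands of miR-29b had few counts too. From the chromosome 7 hairpin, miR-29b-1-5p had 0 and 0 counts with entinostat, and 4 and 0 with DMSO. From the chromosome 1 hairpin, miR-29b-2-5p had 0 and 3 counts with entinostat, and 0 and 2 with DMSO. No library held counts of both 5p arms. Over the 4 libraries the guide miR-29b-3p held 2 of the 11 miR-29b counts (18.2%, exact 95% interval 2.28 to 51.8%), so which arm is the more frequent could not be told. In 118 hairpins named by a single locus, both arms had a row with a RefSeq sequence, and 100 or more counts together. In these the major arm took a median 95.5%, and the 3p arm was the major one in 63. Hairpins with an arm that had no RefSeq sequence under its table name were left out.

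The chromosome 1 cluster was represented by a passenger strand. All 4 libraries held miR-29c-5p, with 8 and 6 counts with entinostat and 8 and 9 with DMSO. At TMM-scaled levels it stood at 14.7 and 7.90 CPM with entinostat and 8.55 and 16.0 CPM with DMSO. The libraries of the treatments overlapped. It failed the low-count filter; where a mean of 10 CPM was the only condition, its log2 fold change was -0.11 (95% interval -1.55 to 1.34, edgeR adjusted p = 0.972), an interval that holds more than a 2-fold change in either direction. Its cluster mate miR-29b-2-5p had 5 of the 36 counts of these 5p arms (13.9%, 4.67 to 29.5%), 3 of 17 with entinostat and 2 of 19 with DMSO.

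**Figure D1:**
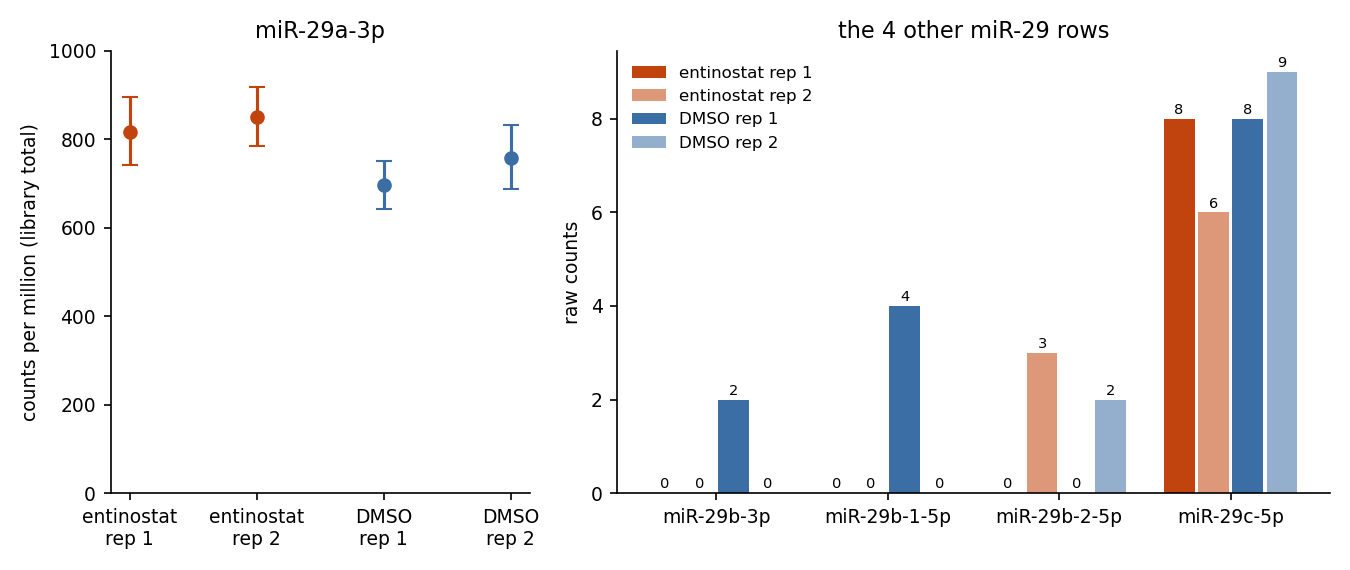
Left, miR-29a-3p in CPM of the library total, 1 point per library with its exact 95% interval (counting error only). Right, raw counts of the 4 other miR-29 rows per library. Points for entinostat lie at 816 and 850 CPM and for DMSO at 696 and 757 CPM, while no bar on the right exceeds 9 counts.

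The imbalance between the chromosome 7 mates was wide, though other clusters held wider ones. The row of miR-29a-3p had 2165 counts over the 4 libraries, the only arm of its hairpin analysed here. The miR-29b-1 hairpin had 4 if miR-29b-3p is left out and 6 if all of it is assigned there, a ratio of 541 or 361. Sums for other hairpins took only table names with a RefSeq sequence, 729 of 826, so some hairpins lack an arm. MIR425, for one, entered at 1373 counts without miR-425-5p, which had a mean of 3641 TMM-scaled CPM. The ratios and shares that follow are those of the matched arms, not of whole hairpins. Among 208 other pairs of hairpins so counted, within 10 kb on the same strand, the more abundant mate had 100 or more counts. Their median ratio was 16.5 and the middle range 3.59 to 67.8. A ratio of 361 or more was reached by 16 of these pairs (7.69%), which were made of 21 hairpins, so many share a mate. Of the 16 pairs, 13 lay on chromosome 14, home of a large imprinted cluster, such as MIR323A with MIR1193 (6144 and 2 counts). Another was MIR17 with MIR19A of the miR-17 cluster (3812 and 2 counts), and both examples were chosen after their values were seen. The chromosome 1 mates were at 31 counts for miR-29c-5p and 5 or 7 for the miR-29b-2 hairpin, a ratio of 6.20 or 4.43, on counts too low for the set of 208. That ratio sets the passenger arm of MIR29C alone, since its guide miR-29c-3p was not analysed here, against a hairpin that may hold both arms.

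**Figure D2:**
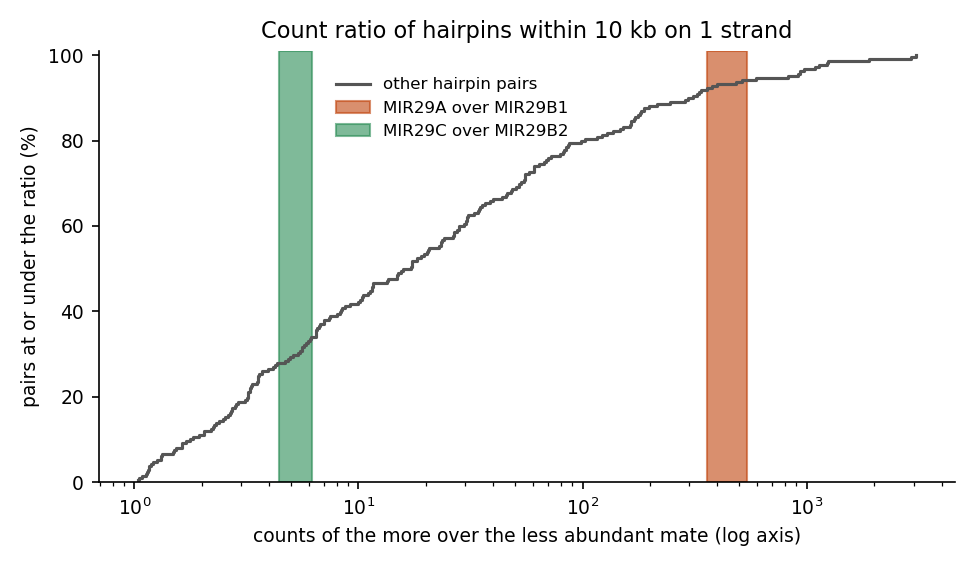
Cumulative share of 208 hairpin pairs within 10 kb on the same strand (y axis, percent) by the ratio of their summed counts (x axis, log scale). The sums hold only arms with a RefSeq sequence under the same name, so some hairpins lack an arm. Bands mark the miR-29 pairs with miR-29b-3p left out or fully assigned, at 361 to 541 for chromosome 7 and 4.43 to 6.20 for chromosome 1. Only the 3p arm of MIR29A and the 5p arm of MIR29C enter these ratios.

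With entinostat, miR-29a-3p stood slightly higher than with DMSO and did not pass the test. Each level is a part of its library total, so a change of all miRNAs together would not be seen. Its TMM-scaled level was 822 and 842 CPM with entinostat, and 698 and 756 CPM with DMSO. Both entinostat libraries lay above both DMSO libraries, which was also true of 83 of the 401 tested miRNAs (20.7%). Means were 832 ± 14.8 CPM with entinostat and 727 ± 41.1 CPM with DMSO (SD, n = 2 each). The fold change was 1.15, on the log2 scale 0.20 (95% interval -0.04 to 0.44, SE 0.10, edgeR quasi-likelihood adjusted p = 0.595, unadjusted p = 0.0900). As a fold, that interval ran from 0.974 to 1.35. Over all 401 tested miRNAs, 0 (0%) passed an adjusted p of 0.05 and 27 (6.73%) had an unadjusted p under 0.05. The likelihood ratio test of edgeR called 4 and the fit without entinostat replicate 1 called 5, and miR-29a-3p was in neither set.

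The counting intervals of the treatments overlapped in part. Unscaled, miR-29a-3p was at 816 CPM (exact 95% interval 742 to 895) and 850 CPM (785 to 918) with entinostat, and at 696 CPM (643 to 751) and 757 CPM (687 to 832) with DMSO. The interval of each entinostat library overlapped that of DMSO replicate 2, and only entinostat replicate 2 lay clear of DMSO replicate 1. As a share of all counts this was 0.0833 ± 0.00240% with entinostat and 0.0726 ± 0.00433% with DMSO (SD, n = 2 each; two-sided exact permutation test, p = 0.333, the smallest that 2 libraries against 2 can give). Upper quartile factors put the median of the 401 log2 fold changes at 0.12, where TMM had it at 0.00466. With them miR-29a-3p was at 0.31 (95% interval 0.01 to 0.61, edgeR adjusted p = 0.418), about as far above the median as with TMM. Leaving out DMSO replicate 1, the library with its lowest level, gave 0.13 (-0.22 to 0.48, edgeR adjusted p = 0.935), in a fit where the lone DMSO library is assumed to vary like the entinostat libraries.

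**Figure D3:**
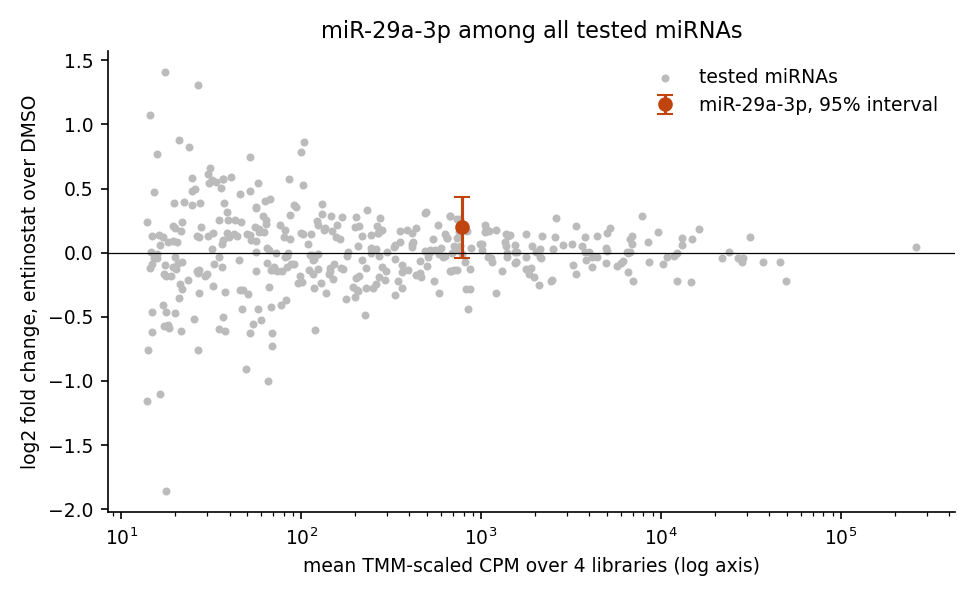
Log2 fold change, entinostat over DMSO (y axis), against mean TMM-scaled CPM (x axis, log scale) for 401 tested miRNAs in grey, with miR-29a-3p and its 95% interval in colour. The interval, -0.04 to 0.44, holds 0, and the point lies inside the cloud of miRNAs of like abundance.

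**Figure D4:**
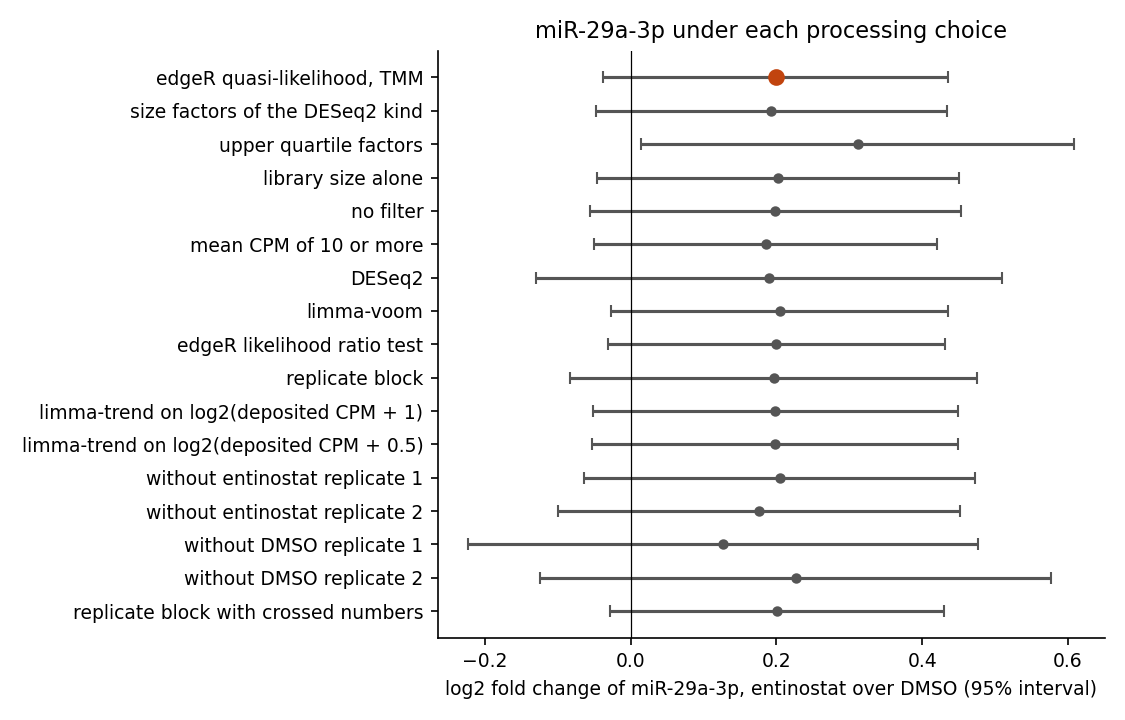
Log2 fold change of miR-29a-3p, entinostat over DMSO, with 95% interval, under the quasi-likelihood fit (top, coloured) and 16 other processing choices. Estimates run from 0.13 to 0.31, all above 0, and the interval with upper quartile factors is the only one that does not hold 0.

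Among miRNAs of like abundance, miR-29a-3p was neither the highest nor unusual in spread. It ranked 107 of 401 by mean level, and 100 to 105 with entinostat and 112 in both DMSO libraries by count. The miRNAs next above it, let-7i-5p and miR-134-5p, had log2 fold changes of -0.07 (95% interval -0.35 to 0.20) and -0.01 (-0.24 to 0.22). Those next below, miR-548ah-3p and miR-767-5p, had 0.26 (-0.04 to 0.56) and 0.05 (-0.20 to 0.30). Of 49 tested miRNAs from 500 to 1200 CPM, a range chosen after the values were seen, 7 had a log2 fold change at least as high as miR-29a-3p, itself included, and 11 had both entinostat libraries above both DMSO libraries. Their median SE was 0.11.

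The miRNAs whose levels moved most like miR-29a-3p over the 4 libraries were miR-17-5p, miR-103a-3p, miR-221-3p, miR-181b-5p and miR-381-3p. Likeness was the Euclidean distance between log2 levels centred over the libraries, among 97 miRNAs of 1000 CPM or more. The distances were 0.0562, 0.0773, 0.0789, 0.0803 and 0.0813, against a median of 0.265. Closest was miR-17-5p, at 1408 and 1465 CPM with entinostat and 1255 and 1350 CPM with DMSO. With only 4 points per miRNA that share depth and scaling, this is a description of these libraries.

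Rows of miRNAs known to target chromatin enzymes, as miR-29 does, lay on both sides of 0. The list named 18 miRNAs against DNA methyltransferases, the methyltransferase EZH2 of the Polycomb complex, or histone deacetylases, and 18 of its 26 rows were tested. Both arms of a name were taken, so a row need not be the arm known to target the enzyme. With edgeR 0 passed the adjusted threshold and 2 had an unadjusted p under 0.05, as 27 of all 401 tested miRNAs (6.73%) had. Above 0 lay 11 and below 7, beside 208 and 193 of all tested, and with upper quartile factors 13 and 5, beside 281 and 120. The median log2 fold change was 0.06, beside 0.00466 for all tested miRNAs (0.17 beside 0.12 with upper quartile factors). The lowest unadjusted p values were those of miR-148a-5p, the passenger of a miRNA against DNMT1, at 0.78 (SE 0.19, edgeR adjusted p = 0.316), and of miR-22-3p, linked to histone deacetylase 4, at -0.32 (SE 0.11, edgeR adjusted p = 0.595). For miR-185-3p the value was -0.62, and for miR-101-3p, which targets EZH2, 0.51. At the tested other arms the values were 0.06 (miR-148a-3p), 0.13 (miR-22-5p) and -0.13 (miR-185-5p). Both entinostat libraries lay above both DMSO libraries in 4 of the 18 and below in 5, where 20.7% and 20% of all tested miRNAs did so.

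Rows of miRNAs known to be repressed by MYC, as miR-29 is, also lay on both sides of 0. Of 17 names, 23 of 32 rows, both arms included, were tested. With edgeR 0 passed the threshold and 2 had an unadjusted p under 0.05, beside 6.73% of all tested miRNAs. The lists share miR-22, miR-26a and miR-26b, so they are not separate sets. In each list miR-22-3p was among the rows with an unadjusted edgeR p under 0.05. Above 0 lay 10 and below 13, beside 208 and 193 of all tested, and with upper quartile factors 17 and 6, beside 281 and 120. The median log2 fold change was -0.04, or 0.08 with upper quartile factors, where the median of all tested miRNAs was 0.12. Its members of lowest unadjusted p were miR-195-3p at 0.86 (edgeR adjusted p = 0.316), miR-22-3p at -0.32, let-7d-3p at -0.56 and miR-30a-5p at 0.13. Their other arms were at 0.03 (miR-195-5p), 0.13 (miR-22-5p), -0.11 (let-7d-5p) and 0.12 (miR-30a-3p). The value of miR-29a-3p, 0.20, lay above both medians and within the range of each list.

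**Figure D5:**
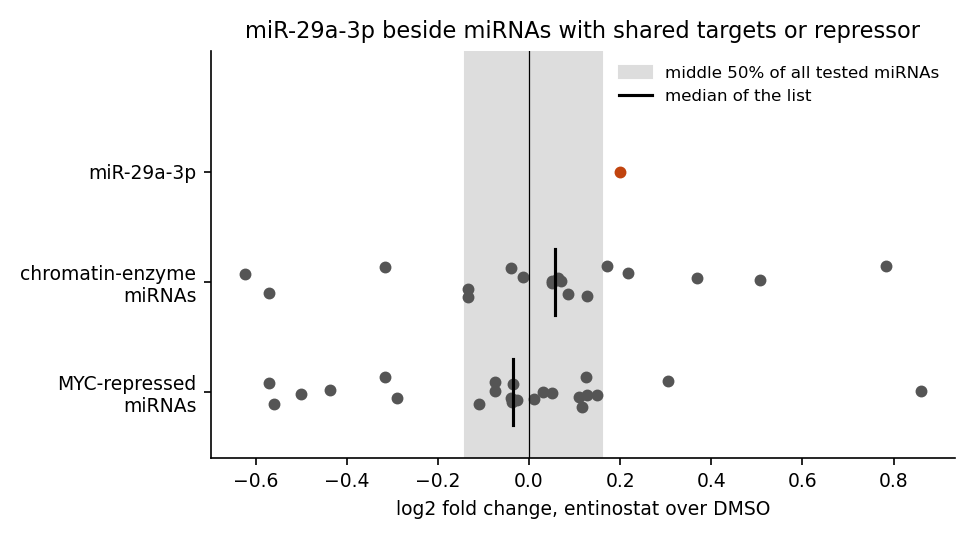
Log2 fold change, entinostat over DMSO, of miR-29a-3p (top) and of the tested rows of the miRNA lists, 1 point each. The lists hold 18 tested rows of miRNAs that target chromatin enzymes and 23 of miRNAs known to be repressed by MYC. Both arms of a listed name were taken. Black lines mark list medians of 0.06 and -0.04 (0.17 and 0.08 with upper quartile factors). The grey band, -0.14 to 0.16, holds the middle 50% of all tested miRNAs, and miR-29a-3p at 0.20 lies just outside it.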

How the data were processed

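The deposited table gives raw counts per mature miRNA name for 4 libraries, and a second deposited table gives CPM, which the authors obtained by dividing each count by its column total, as the values show within 4.92e-05 CPM. The submitters' processing notes name bcl2fastq 2.18. Not given in the sources used here are the aligner, the counting rule, the miRNA annotation, the build and the handling of reads that fit near-identical family members, so these are uncertain singly. Per the labels' protocols, TRIzol RNA, 1 µg a library, went into New England Biolabs small RNA reagents; no molecular identifier is named.

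Counts were TMM-scaled and tested over all rows in edgeR 4.0.16 by quasi-likelihood (R 4.3.3; filterByExpr, minimum count 10, minimum total 15; 401 rows tested, 425 not), with treatment as the only term, Benjamini-Hochberg adjustment and a threshold of 0.05. The fit was tested on simulated data. Alternatives were other scalings, filters, DESeq2 1.42.0, limma 3.58.1 (voom, and trend on log2 of deposited CPM plus 1 or 0.5), a likelihood ratio test, a replicate block and each library left out. Shares have exact Clopper-Pearson intervals, which cover counting error only, also where libraries are summed. Cluster mates came from RefSeq positions (GRCh38.p14), leaving out 29 hairpins with an arm name shared between loci. Hairpin sums and arm shares also left out table names without a RefSeq sequence, which 729 of 826 names had. Named miRNAs were every miR-29 row, the 4 of lowest p per list, 2 neighbours on each side in abundance and the 5 most alike. Tested other arms of the list members were added after the values were seen. The members, lists and rules were chosen with earlier results of these data known, and the lists were recalled without a database.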

Additional observations from a re-analysis of the deposited data

How the results depend on the processing

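The log2 fold change of miR-29a-3p stayed above 0 and short of the threshold under all 16 alternatives, from 0.13 to 0.31 (adjusted p 0.418 to 0.999). Leaving out 1 library at a time gave 0.13 to 0.23, with the lone library assumed to vary like the other group, so missing the threshold there says little. Among the others, the replicate block gave 0.20 (edgeR adjusted p = 0.826). The count of called miRNAs was 0 under 14 alternatives, 4 with the edgeR likelihood ratio test, and ran from 0 to 5 with 1 library left out; the cause was not tested. Replicate numbers did not pair the libraries by any label, and deviations of same-numbered libraries correlated at -0.13 over 236 miRNAs of 100 CPM or more. The replicate block called 0, and so did a block with the numbers crossed, added after seeing the data, with 25 and 32 unadjusted p under 0.05. The 0.0107 percentage points by which the miR-29a-3p share was higher with entinostat kept its sign without each library. The share of miR-29b-3p in its pair with miR-29a-3p, and in the miR-29b counts, rests on 2 counts in DMSO replicate 1, and both are 0 without that library. Of hairpin pairs, summed over arms with a RefSeq sequence alone, 12.0% and 8.84% reached the miR-29 ratio with mates within 2 kb and 50 kb. With 1000 or more counts it was 11.4%. Depth limits every miR-29 row but miR-29a-3p.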
